A study of Mus musculus with 3 samples.

Results

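The autophagy machinery genes described here are 10 genes, namely Sqstm1, Map1lc3b, Gabarapl1, Ulk1, Becn1, Atg5, Atg7, Atg12, Tfeb and Wipi1. They were taken by gene symbol from the expression tables of 3 mouse liver libraries. All 10 were found among the 23361 genes listed, and all 10 were among the 10792 genes that reached 1 FPKM or more in some library. FPKM is the number of sequenced fragments of a gene scaled by transcript length and by the mapped fragments of the library. The mice were C57BL/6J, labelled as male and 8 to 10 weeks old, and were fasted before surgery. The sham library came from livers taken 90 min after a laparotomy without clamping. For the warm ischemia (WI) library the portal triad to the left and median lobes was clamped for 90 min. The library for ischemia followed by reperfusion (IR) came from livers clamped for 90 min and then reperfused for 2 h. Each group had a single library, so no difference below has a replicate check. Whether a library held RNA of a single mouse or of several is not stated. No sham group matched the IR group in time, so reperfusion and the added time after surgery cannot be told apart.

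Autophagy encloses cytoplasm, damaged organelles and protein aggregates in a double membrane, the phagophore, which closes into an autophagosome and fuses with the lysosome. The kinase ULK1 starts the process, and Beclin 1 (Becn1) is a subunit of the lipid kinase complex that makes phosphatidylinositol 3-phosphate (PI3P) on the new membrane. WIPI1 binds that lipid. ATG7 is the activating enzyme of the conjugation system in which ATG12 is joined to ATG5, and this conjugate helps to attach the ATG8 proteins, LC3B (Map1lc3b) and GABARAPL1 among them, to the phagophore. The receptor p62 (Sqstm1) binds ubiquitinated cargo and LC3, and is itself degraded with the cargo. TFEB is a transcription factor of lysosomal and autophagy genes. In the liver, autophagy is known for supplying nutrients during fasting and for removing damaged mitochondria. Autophagy itself was not measured here, since the tables hold mRNA only.

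The libraries differed in ways that touch every comparison with the IR sample. The sex-linked genes of the sham and WI libraries went against their label of male. Those of the IR library went with it, although Xist was not at 0 there. Xist, which is transcribed from the inactive X chromosome of females, measured 18.9 FPKM in sham, 20.1 in WI and 1.29 in IR. The summed FPKM of 4 Y-linked genes (Ddx3y, Uty, Kdm5d and Eif2s3y) was 0, 0.00849 and 23.7 in the same order. Sex, reperfusion and the added time therefore cannot be told apart in the comparisons with IR, whereas the sham and WI libraries were alike in these genes. None of the 10 genes lies on a sex chromosome. The summed FPKM over all genes was 475754 in sham, 487912 in WI and 712423 in IR, and the Mup genes (major urinary proteins) held 2.33%, 2.11% and 12.6% of it. Genes listed at 0 because they had too many fragments, 1 in sham, 1 in WI and 7 in IR, add nothing to these sums. Markers of other cells differed as well. The summed FPKM of 6 neutrophil markers found of 7 listed was 25.3, 19.3 and 460 in sham, WI and IR, with Mpo near 0 in all of them and the other 5 at least 2-fold higher in IR, and that of 3 erythroid markers found of 4 listed was 419, 395 and 1184. The 7 Kupffer cell markers summed to 294, 164 and 106, and 5 of them were at least 2-fold lower in IR than in sham, while Marco (20.9, 12.6 and 25.3) and Cd68 (18.5, 12.3 and 18.5) were not. The sums were 118, 84.8 and 96.7 for 6 sinusoidal endothelial markers, of which Lyve1 (11.2, 2.73 and 33.4) and Pecam1 were higher in IR than in WI and the other 4 lower, and 148, 107 and 111 for 6 stellate cell markers. They were 2.48, 3.29 and 6.92 for 4 cholangiocyte markers, 6.64, 6.87 and 3.64 for 4 T and NK cell markers, and 4.33, 2.29 and 1.78 for 3 B cell markers. The 6 hepatocyte markers summed to 14518, 10627 and 16404, although Alb is listed at 0 in every library. In bulk liver RNA, fewer cells of a type and less RNA per cell cannot be told apart, and the part of these cells in the results below was not tested.

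The promoters of 3 genes are shown because they belong to the gene with the largest difference (Sqstm1) and to genes whose promoter held a searched motif close to the start site (Map1lc3b and Atg5). Each is the RefSeq sequence from 250 bases before to 50 bases after the start of transcription, 5′ to 3′ on the strand of the gene, in build GRCm38.p6, the build of the files (mm10). Capitals mark the motif matches, and positions are counted from 1 at the start site, with the base before it at -1. The promoter of Sqstm1 is chr11:50210771-50211070 on the minus strand, that of Map1lc3b is chr8:121590188-121590487 on the plus strand, and that of Atg5 is chr10:44268089-44268388 on the plus strand.
Sqstm1: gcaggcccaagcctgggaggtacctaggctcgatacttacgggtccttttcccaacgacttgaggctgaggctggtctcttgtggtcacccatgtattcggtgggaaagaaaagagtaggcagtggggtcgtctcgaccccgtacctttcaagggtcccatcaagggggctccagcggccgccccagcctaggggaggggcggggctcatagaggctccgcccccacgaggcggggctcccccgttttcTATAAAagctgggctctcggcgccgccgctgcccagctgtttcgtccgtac
Map1lc3b: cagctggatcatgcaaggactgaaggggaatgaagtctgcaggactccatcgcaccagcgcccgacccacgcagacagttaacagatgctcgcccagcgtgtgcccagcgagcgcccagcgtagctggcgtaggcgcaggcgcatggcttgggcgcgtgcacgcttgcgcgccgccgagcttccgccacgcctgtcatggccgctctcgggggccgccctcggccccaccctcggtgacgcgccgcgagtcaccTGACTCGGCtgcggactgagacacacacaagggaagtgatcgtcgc
Atg5: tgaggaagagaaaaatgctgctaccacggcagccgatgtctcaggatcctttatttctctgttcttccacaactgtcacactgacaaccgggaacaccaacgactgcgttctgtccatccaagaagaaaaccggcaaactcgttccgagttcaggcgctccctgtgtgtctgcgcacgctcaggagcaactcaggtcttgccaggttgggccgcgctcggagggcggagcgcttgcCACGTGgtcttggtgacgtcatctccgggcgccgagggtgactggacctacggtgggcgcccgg

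Both strands were searched for CACGTG (the E-box core of the element that TFEB binds), TGACNNNGC (a core of the antioxidant response element bound by NRF2), TGANTCA (AP-1) and GAANNTTC (a core of the heat shock element). TATAAA (the TATA box) was added after the sequences had been seen. The table holds 10 promoters of 8 of the 10 genes, 3 of them for Tfeb, and none for Becn1 and Atg12. CACGTG occurred in 2 of the 10 promoters, those of Atg5 (from position -14) and Atg7 (from position -132), and in 7.15% of all 32851 promoters of the table. The start site used for Atg7 lies 27999 bases inside the gene as the files give it. That of Gabarapl1 lies 1008 bases inside, and those of Tfeb lie 0, 894 and 48707 bases inside. Not all promoters searched thus border the 5′ end of the gene in the files. TGACNNNGC occurred in the promoter of Map1lc3b only, from position 5 as TGACTCGGC, and in 12.4% of all promoters. TGANTCA and GAANNTTC, present in 7.81% and 7.86% of all promoters, were in none of the 10. TATAAA was in the promoter of Sqstm1 alone and in 13.6% of all promoters. Its first base lay at position -1 of the RefSeq start, 31 bases before the 5′ end of Sqstm1 in the files. Matches of letters are descriptions of sequence and say nothing of binding.

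In the sham liver the 10 genes covered a wide range of levels. FPKM is already divided by transcript length, so levels can be compared between genes. Gabarapl1 (160), Sqstm1 (110) and Map1lc3b (85.4) had the highest FPKM in sham, followed by Atg5 (20.3), Becn1 (19.7), Ulk1 (16.1), Atg12 (12.0), Atg7 (7.39), Wipi1 (6.52) and Tfeb (3.61). Each FPKM comes with lower and upper 95% bounds, which describe Cuffdiff's model of a single library and not the variation between mice. In this order the only neighbours whose bounds did not overlap were Map1lc3b and Atg5. The WI sample kept the same order. There the bounds of all neighbours overlapped. In the IR sample Sqstm1 stood first with an FPKM of 535, ahead of Gabarapl1 (276) and Map1lc3b (113), and the gap in the bounds lay between Map1lc3b and Becn1 (23.3). The bounds of Sqstm1 and Gabarapl1 overlapped there. The cargo receptor and the ATG8 genes were thus the abundant members in each library.

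**Figure D1:**
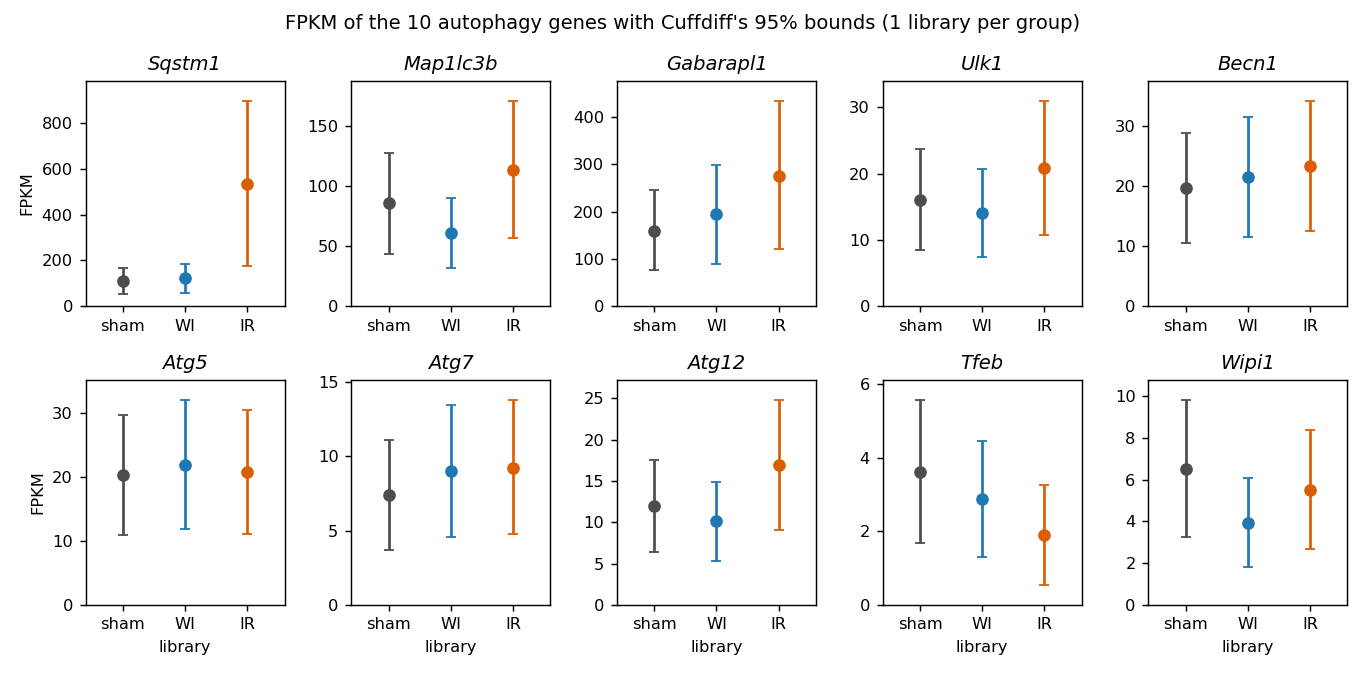
FPKM of each of the 10 genes (vertical axes from 0, a separate scale per gene) in the sham, WI and IR libraries, with points for the FPKM and bars for Cuffdiff's 95% bounds. The IR point of Sqstm1, at 535, stands above the sham and WI points at 110 and 122, and for the other 9 genes the bars of the 3 libraries overlap.

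Sqstm1, the gene of the cargo receptor p62, lies on chromosome 11 of mm10 from 50200152 to 50210790. It measured 110 FPKM in sham (95% bounds 53.2 to 168), 122 in WI (57.8 to 186) and 535 in IR (175 to 895). The sham and WI samples were close to each other and the IR sample was high. On the scale of log2(FPKM + 1), WI exceeded sham by 0.14, IR exceeded WI by 2.13, and IR exceeded sham by 2.27. An approximate 95% interval of each difference was rebuilt from the deposited bounds, and it ran from -0.91 to 1.20, from 0.90 to 3.35 and from 1.05 to 3.48. The bounds did not overlap between IR and sham, and overlapped slightly between IR and WI. Among the 10792 genes, the difference of Sqstm1 was at percentile 69.3 for WI against sham, 98.6 for IR against WI and 99.0 for IR against sham. By FPKM it ranked 641 among all genes in sham, 613 in WI and 195 in IR. Under the 3 scalings tried (the median ratio over genes, a common sum, and a common sum without the Mup genes), IR exceeded WI by 1.58 to 2.08 and sham by 1.69 to 2.18. The bounds of IR and sham, however, overlapped after scaling by the median ratio or to a common sum. The neutrophil and erythroid marker sums given above were also high in IR, and their part in the level of Sqstm1 was not tested.

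Ratios within a library do not depend on how the libraries are scaled. The FPKM of Sqstm1 was 1.29 times that of Map1lc3b in sham, 2.0 times in WI and 4.73 times in IR. Against Nbr1, which encodes another receptor for ubiquitinated cargo, the ratio was 3.07, 2.93 and 15.9. Sqstm1 made up 25.0% of the summed FPKM of the 10 genes in sham, 26.5% in WI and 52.3% in IR. The share of Sqstm1 was thus close in sham and WI and higher in IR. The genes whose pattern over the 3 libraries was most like that of Sqstm1 were Pvr, Il17ra, S100a10, Alas2 and Nop58. They were at Euclidean distances of 0.106, 0.124, 0.141, 0.179 and 0.187 in centred log2(FPKM + 1), among 4592 genes that reached 10 FPKM or more in some library. With only 3 points per gene, such likeness is a description. Alas2 is also among the erythroid markers.

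The ATG8 genes of the list encode the proteins that are joined to the phagophore membrane. Map1lc3b, on chromosome 8 from 121590468 to 121598047, measured 85.4 FPKM in sham (95% bounds 43.7 to 127), 60.8 in WI (31.9 to 89.7) and 113 in IR (56.2 to 170). It was lowest in WI and highest in IR, and the bounds of the 3 samples overlapped. The difference was -0.48 for WI against sham (interval -1.46 to 0.49), 0.89 for IR against WI (-0.10 to 1.87) and 0.40 for IR against sham (-0.60 to 1.40). The last of these changed direction to -0.18 with FPKM rescaled to a common sum, and to -0.02 when that sum left out the Mup genes. Gabarapl1, on chromosome 6 from 129532184 to 129542331, measured 160 FPKM (76.3 to 245), 194 (89.5 to 299) and 276 (120 to 433) in sham, WI and IR. It stepped up from sham to WI to IR with overlapping bounds. Its differences were 0.27 (-0.81 to 1.35) for WI against sham, 0.51 (-0.62 to 1.63) for IR against WI and 0.78 (-0.33 to 1.89) for IR against sham, and the second became -0.04 with a common sum.

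The other ATG8 genes of the mouse genome in the tables, Map1lc3a, Gabarap and Gabarapl2, complete a family of 5. The summed FPKM of all 5 was 504 in sham, 516 in WI and 762 in IR. Gabarap and Gabarapl1 held most of it, with 34.9% and 31.8% in sham, 36.8% and 37.6% in WI, and 34.5% and 36.3% in IR. Map1lc3b held 16.9%, 11.8% and 14.9%. All 5 genes were higher in IR than in WI, by 0.38 to 1.03 on the log2 scale, and higher in IR than in sham, by 0.26 to 0.78. This direction holds for FPKM as deposited and after median ratio scaling. The median ratio altered the values little, with factors of 0.973 for WI and 0.943 for IR relative to sham, so it is hardly a separate check. With a common sum only 2 of the 5 were higher in IR in either comparison. With a common sum without the Mup genes 3 of 5 were higher in IR than in sham. The family total in IR was 101% of that in sham with a common sum, against 151% for FPKM as deposited. Between WI and sham, 2 of the 5 were higher and 3 lower.

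Ulk1 and Becn1 act at the start of autophagosome formation. Ulk1, on chromosome 5 from 110784489 to 110810081, measured 16.1 FPKM in sham (95% bounds 8.52 to 23.7), 14.1 in WI (7.47 to 20.7) and 20.9 in IR (10.8 to 30.9). Becn1, on chromosome 11 from 101279203 to 101302267, measured 19.7 FPKM (10.6 to 28.9), 21.6 (11.6 to 31.6) and 23.3 (12.5 to 34.1). The 3 values of Becn1 lay close together, while those of Ulk1 were lowest in WI and highest in IR. For IR against WI the differences were 0.54 (interval -0.38 to 1.45) for Ulk1 and 0.11 (-0.80 to 1.01) for Becn1, and for IR against sham 0.35 (-0.57 to 1.27) and 0.23 (-0.67 to 1.13). With a common sum, Becn1 was below 0 in both of these comparisons (-0.42 and -0.33) and Ulk1 in the comparison with sham (-0.20). Between WI and sham the differences were -0.18 and 0.12. Wipi1, the PI3P-binding member on chromosome 11 from 109573521 to 109611389, measured 6.52 FPKM (3.23 to 9.81) in sham, 3.92 (1.79 to 6.06) in WI and 5.51 (2.66 to 8.36) in IR. It had the lowest value of the 10 genes for WI against sham, -0.61 (-1.50 to 0.28), at percentile 3.95 of all genes. For IR against WI it was 0.40 and for IR against sham -0.21, the first becoming -0.05 with a common sum.

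Among the conjugation genes, Atg5 and Atg7 differed little between the libraries and Atg12 differed more. Atg5, on chromosome 10 from 44268358 to 44364291, measured 20.3 FPKM in sham (95% bounds 10.9 to 29.7), 21.9 in WI (11.8 to 32.0) and 20.8 in IR (11.1 to 30.4). Atg7, on chromosome 6 from 114643097 to 114860614, measured 7.39 FPKM (3.67 to 11.1), 9.02 (4.55 to 13.5) and 9.25 (4.74 to 13.8). Atg5 was nearly level over the 3 libraries, with differences of 0.10, -0.07 and 0.03 in the order WI against sham, IR against WI and IR against sham. The intervals of Atg5 reached from -0.98 at the lowest to 1.0 at the highest, so differences of up to 2-fold either way cannot be told from none with these bounds. The differences of Atg7 were 0.26, 0.03 and 0.29. The small values for IR turned negative for Atg7 against WI (-0.01) and for Atg5 against sham (-0.05) with median ratio scaling, and reached -0.48 and -0.54 with a common sum. Atg12, whose protein is joined to ATG5, measured 12.0 FPKM (6.39 to 17.6), 10.1 (5.34 to 14.9) and 16.9 (9.09 to 24.8) in sham, WI and IR. It was highest in IR, by 0.69 over WI (-0.19 to 1.57) and 0.47 over sham (-0.42 to 1.35), the latter becoming -0.08 with a common sum.

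Tfeb, on chromosome 17 from 47737037 to 47792416, was the least abundant member and the only one that stepped down through the series. It measured 3.61 FPKM in sham (95% bounds 1.67 to 5.56), 2.88 in WI (1.30 to 4.46) and 1.89 in IR (0.540 to 3.25). The bounds of the 3 samples overlapped. The difference was -0.25 for WI against sham (interval -1.09 to 0.60), -0.42 for IR against WI (-1.32 to 0.47) and -0.67 for IR against sham (-1.58 to 0.24). All scalings kept these signs, and with a common sum the last difference was -1.23. At such a low FPKM the pseudocount of 1 understates the change, which was -0.93 for IR against sham with a pseudocount of 0.01.

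**Figure D2:**
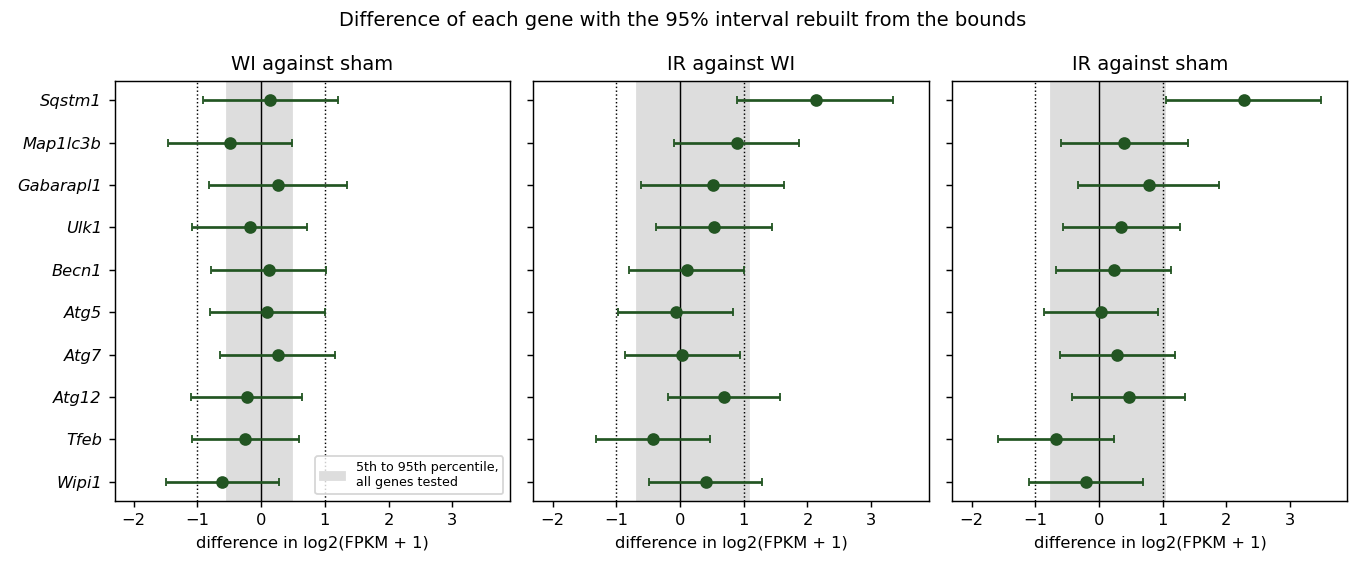
Difference in log2(FPKM + 1) of each of the 10 genes (points) for WI against sham, IR against WI and IR against sham, with bars for the 95% interval rebuilt from the deposited bounds, dotted lines at 2-fold and a grey band from percentile 5 to percentile 95 of all 10792 genes. Sqstm1, at 2.13 and 2.27 in the panels for IR, is the only gene whose bar leaves out 0, and the bars of the other genes cross 0 in all 3 panels.

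The 10 genes were then counted against all genes. Between WI and sham, 0 of the 10 differed at least 2-fold in FPKM + 1, where 1.85% of all genes did (0.751% higher and 1.10% lower in WI). The bounds of 0 of the 10 were apart, against 0.676% of all genes, and the rebuilt interval left out 0 for 0 of the 10, against 2.51%. With 10 genes and these shares, a count of 0 is close to the background. The median difference of the 10 was -0.04, and that of all genes 0.02. Between IR and WI, 1 of the 10 was at least 2-fold higher and 0 were lower, and the shares among all genes were 7.21% in either direction, 5.78% higher and 1.43% lower. Bounds were apart for 0 of the 10 (3.61% of all genes), and the interval left out 0 for 1 of the 10 (9.52%). Between IR and sham, 1 of the 10 was at least 2-fold higher and 0 were lower, against 7.50% of all genes in either direction, 5.35% higher and 2.15% lower. Bounds were apart for 1 of the 10 (3.82% of all genes), and the interval left out 0 for 1 of the 10 (10.6%). The gene counted was Sqstm1 each time, and 1 in 10 is near the share among all genes. With a common sum, with or without the Mup genes, Tfeb also passed 2-fold between IR and sham, on the lower side. Of all 10792 genes, 1554 did so with a common sum and 1067 with that sum without the Mup genes.

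The median of the 10 genes was 0.46 for IR against WI and 0.32 for IR against sham, where the medians of all genes were 0.03 and 0.05. Without Sqstm1 the medians of the other 9 were 0.40 and 0.29. Of the 10 genes, 8 were above 0 in each of these comparisons, where 52.4% and 54.4% of all genes were. Both comparisons use the IR library, so they are not separate observations. Atg5 and Tfeb were below 0 for IR against WI, and Tfeb and Wipi1 for IR against sham. Several of these directions changed with the scaling. Rescaled to a common sum, the median of all genes moved to -0.45 in both comparisons, and only 4 and 2 of the 10 genes were then above 0. The share of all genes above 0 was not computed for that scaling. Relative to the median of all genes, the median of the 10 was higher by 0.43 and 0.27 for FPKM as deposited and by 0.41 and 0.23 with a common sum. Of all genes past 2-fold, 80.2% were higher in IR than in WI and 71.3% higher in IR than in sham for FPKM as deposited, 24.5% and 17.0% with a common sum, and 38.1% and 27.0% with a common sum without the Mup genes.

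**Figure D3:**
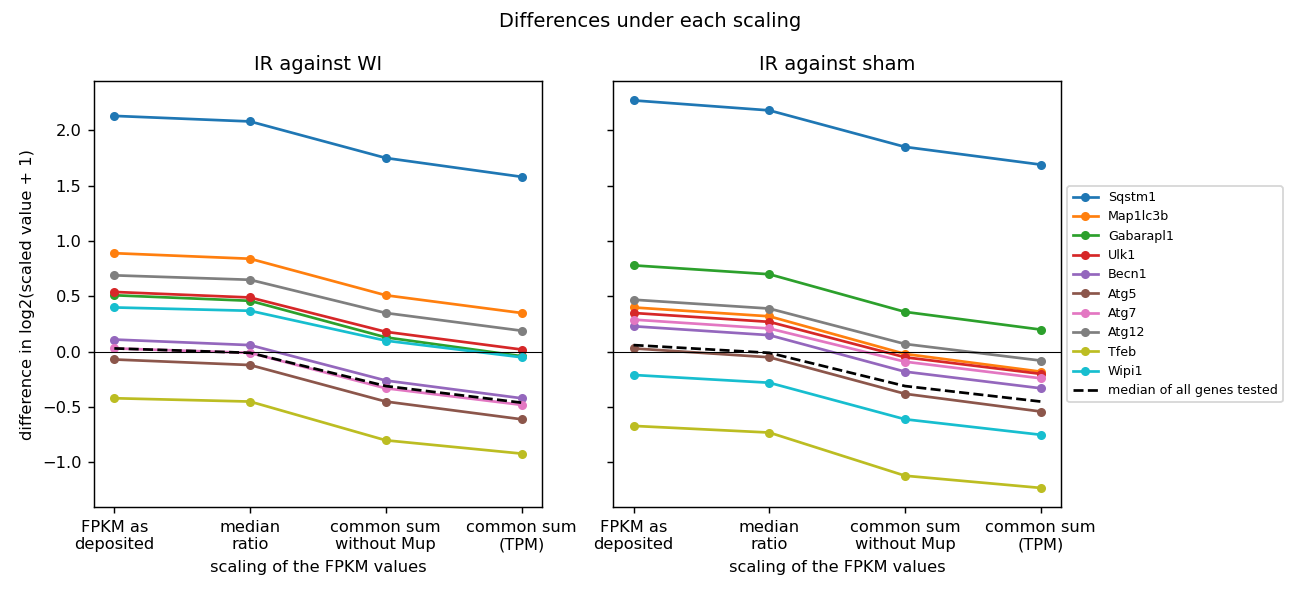
Difference in log2(scaled value + 1) of the 10 genes (coloured lines) and the median of all genes tested (dashed line) for IR against WI and IR against sham, with FPKM as deposited and under 3 scalings along the horizontal axis. All lines shift down together, and Sqstm1 stays between 1.58 and 2.27 while genes near 0 cross to the other side.

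The rest of the autophagy pathway was described with a list of 52 further genes, of which 51 passed the filter. Between WI and sham, 0 of the 51 were at least 2-fold higher and 1 was lower. Between IR and WI, 4 were higher and 0 lower, and between IR and sham 1 was higher and 1 lower. Of all genes, 5.78% were higher in IR than in WI and 5.35% higher in IR than in sham, so neither count of higher genes stands far from the background. Their medians were -0.04, 0.00 and 0.01, and the bounds of no gene of this list were apart in any comparison. Of all genes, 0.676%, 3.61% and 3.82% had bounds apart, in the order WI against sham, IR against WI and IR against sham. With a common sum, with or without the Mup genes, 1 was higher and 4 were lower between IR and WI. Between IR and sham, 0 were higher and 4 lower. Among all 10792 genes with a common sum, 385 were higher and 1185 lower between IR and WI. Between IR and sham, 319 were higher and 1554 lower. Without the Mup genes these numbers were 463 and 751, and 394 and 1067. The median ratio gave 2 and 0 of the 51, and 0 and 1, against 583 and 177, and 513 and 289, of all genes. The medians as deposited lay near those of all genes. The gene with the largest difference between IR and WI was Fam134b, also named Retreg1, a receptor for the autophagy of endoplasmic reticulum. It measured 74.9 FPKM in sham, 34.8 in WI and 124 in IR, a difference of -1.08 for WI against sham (interval -2.24 to 0.07) and of 1.80 for IR against WI (0.55 to 3.06). Both comparisons share the WI library.

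The other 3 genes past 2-fold between IR and WI were Wdr45b, Map1lc3a and Atg16l2. Wdr45b, a PI3P-binding relative of Wipi1, measured 14.1 FPKM in sham, 13.7 in WI and 30.4 in IR, and its difference was 1.10 for IR against WI and 1.06 for IR against sham. Map1lc3a, an ATG8 gene, had 27.1, 20.9 and 43.7. Atg16l2, a relative of the ATG5 partner Atg16l1, had 2.24, 1.53 and 4.12. Of these genes only Fam134b kept a difference past 2-fold with a common sum (1.28), while the others were at 0.51 to 0.71. Wdfy3, which encodes a large scaffold protein for the autophagy of aggregates, was the gene on the lower side between IR and sham, with an FPKM of 5.07, 3.60 and 1.95 and a difference of -1.04 for IR against sham (-1.76 to -0.32).

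By step of the pathway, the differences between IR and WI were above 0 for 1 of 4 genes of the initiation complex, 2 of 7 of the lipid kinase complex, 6 of 9 for phagophore growth and PI3P effectors, 3 of 8 for conjugation and ATG4 proteases, 7 of 12 cargo and mitophagy receptors, and 3 of 8 for fusion with the lysosome. Over all genes 52.4% were above 0. Among the 12 receptors for cargo and mitochondria that passed the filter, 10 were lower in WI than in sham. Their median was -0.21 against 0.02 for all genes, and bounds overlapped for all 12. Of all 10792 genes, 5107 were lower in WI, and 0.676% had bounds apart. In the other steps above, 1 of 4, 4 of 7, 5 of 9, 4 of 8 and 2 of 8 genes were lower. Of 14 lysosomal enzymes and cofactors, 12 were lower, with a median of -0.11. Sqstm1, the receptor among the 10 genes, was higher by 0.14.

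Genes that control autophagy through nutrients or transcription, 17 of 18 passing the filter, included Ddit4 and Tfe3, whose bounds were apart. Bounds were apart for 1, 2 and 1 of the 17 for WI against sham, IR against WI and IR against sham. The shares among all genes were 0.676%, 3.61% and 3.82%. Between WI and sham 0 were higher and 1 was lower past 2-fold, between IR and WI 2 were higher and 1 lower, and between IR and sham 1 was higher and 1 lower. Among all genes 1.10% were lower between WI and sham, 5.78% higher and 1.43% lower between IR and WI, and 5.35% higher and 2.15% lower between IR and sham. Ddit4, an inhibitor of the growth kinase complex mTORC1, measured 26.9 FPKM in sham, 3.22 in WI and 18.8 in IR. It was lowest in WI, with differences of -2.72 for WI against sham (interval -3.63 to -1.82) and 2.23 for IR against WI (1.33 to 3.14), and its bounds were apart in both. For IR against sham Ddit4 differed by -0.49 as deposited, by -0.91 with a common sum without the Mup genes and by -1.07 with a common sum. Tfe3, a relative of Tfeb on the X chromosome, measured 4.77 FPKM, 5.28 and 19.6. Its IR value was higher than WI by 1.72 (0.75 to 2.68) and higher than sham by 1.84 (0.88 to 2.80), with bounds apart in both comparisons, whereas Tfeb was lower in IR than in either. Under the scalings Tfe3 stayed at 1.27 or above for IR against WI and at 1.37 or above for IR against sham. Deptor, a protein bound to mTOR that restrains it, measured 19.5 FPKM, 23.5 and 9.22, with differences of -1.26 for IR against WI and -1.0 for IR against sham. Scaled to a common sum, 2 of the 17 genes were higher and 2 lower between IR and WI. Between IR and sham, 1 was higher and 5 lower. Among all 10792 genes so scaled, 385 were higher and 1185 lower in the first comparison, and 319 and 1554 in the second. Over this list 3 of 17 genes were above 0 for IR against sham, with a median of -0.37, and over all genes 54.4% were above 0 with a median of 0.05.

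Lysosomal genes, 22 in number and all past the filter, include known targets of TFEB. Between WI and sham 0 of them differed at least 2-fold in either direction. Between IR and WI 3 were higher and 0 lower, and the same counts held between IR and sham, where 5.78% and 5.35% of all genes were higher. The 3 genes were Cd63, Ctsl and Gla in both comparisons. Bounds were apart for 1 of the 22 between IR and WI (Cd63) and for 1 between IR and sham (Gla). Of all genes, 3.61% and 3.82% had bounds apart there. Cd63, a tetraspanin of late endosomes and lysosomes, measured 7.24 FPKM in sham, 6.61 in WI and 21.3 in IR. Ctsl, which encodes the protease cathepsin L, had 298, 287 and 714. Gla, which encodes alpha-galactosidase A and lies on the X chromosome, had 1.61, 1.81 and 5.06. After scaling to a common sum, 1 lysosomal gene was higher (Cd63, 1.09) and 1 lower between IR and WI. Between IR and sham, 0 were higher and 1 lower. Among all 10792 genes so scaled, 385 were higher and 1185 lower in the first comparison, and 319 and 1554 in the second. The median of the 22 genes was -0.06 for WI against sham, 0.07 for IR against WI and 0.06 for IR against sham, near the medians of all genes.

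**Figure D4:**
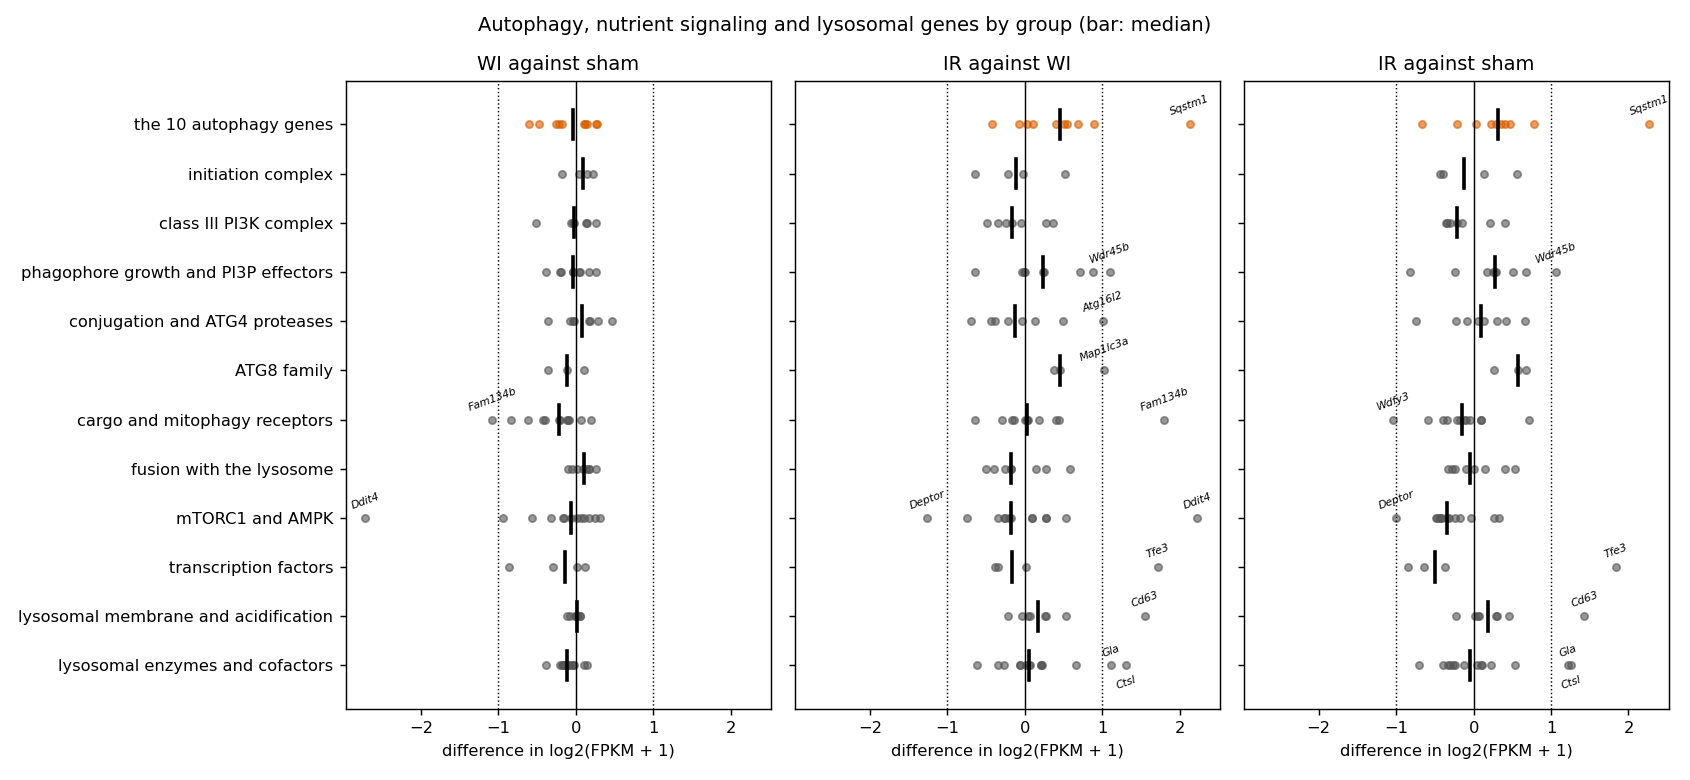
Difference in log2(FPKM + 1) of the 10 genes (orange) and of further autophagy, nutrient signaling and lysosomal genes (grey) by group, for the 3 comparisons, with a bar at each group's median, dotted lines at 2-fold and names for genes past 2-fold. Of the genes plotted, in the panel for WI against sham, only Ddit4 at -2.72 and Fam134b at -1.08 lie past 2-fold, and in the IR panels Sqstm1, Tfe3 and Cd63 lie farthest to the right among the genes past 2-fold in both.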

How the data were processed

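RNA sequencing of mouse liver gave 3 libraries, 1 per group. The authors mapped read pairs to mm10 with TopHat2 2.0.9 and deposited FPKM per gene with 95% bounds from Cuffdiff (Cufflinks 2.0.2), default settings. The files give no fragment counts per gene. The study's totals of read pairs per library were not used here. The half-width of the bounds was a median 51.9% to 52.0% of FPKM. FPKM is 0 where Cuffdiff had too many fragments at a locus (1 gene in sham, 1 in WI, 7 in IR). The sums of FPKM, the common-sum scalings and the shares among all genes include these zeros. Over the 10755 genes with Cuffdiff status OK in every library, 762 passed 2-fold between IR and WI, against 778 of 10792.

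Differences of log2(FPKM + 1) were taken over the 10792 genes reaching 1 FPKM in any library, and at least 2-fold was counted. Intervals took the bounds as 1.96 SD. With 1 library per group no test was possible. Gene starts are given as the file's start plus 1, which equalled the RefSeq start for 10555 genes, whereas the file's start itself did so for 673. The coordinates of Atg12 are not reported here.

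The 10 genes and all lists were chosen with earlier results of these data known. Genes of the other lists are named where they passed 2-fold or their bounds were apart. As genes like Sqstm1, the 5 nearest were named. Alternatives were pseudocounts, filters, fold thresholds and scalings. A common sum without Mup genes and the rebuilt interval were added after seeing the data. Functions were tested on simulated data. Python 3.11.15, numpy 2.4.6, pandas 2.3.3 and matplotlib 3.10.9 were used.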

Additional observations from a re-analysis of the deposited data

How the results depend on the processing

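Leaving out a replicate was not possible with 1 library per group, and no paired analysis was possible because each group holds 1 library. At a threshold of 1.5-fold, 1, 3 and 3 of the 10 genes differed for WI against sham, IR against WI and IR against sham, and 3, 10 and 9 of the 51 further autophagy genes. At 4-fold the further genes numbered 0 in each comparison. The shares of all genes past 1.5-fold and 4-fold were not computed, so these counts have no background to be read against. With a common sum, the median of the 10 genes was -0.04 for IR against WI and -0.22 for IR against sham. There 2 of the 10 passed 2-fold for IR against sham, and 4 of the 51 further genes did. Of all 10792 genes, 1873 passed 2-fold in that comparison. A common sum without the Mup genes, chosen after seeing the data, also gave 2 and 4, against 1461 of all genes. With the median ratio 2 of the further genes passed for IR against WI and 1 for IR against sham, against 760 and 802 of all genes. Bounds were apart for 0 genes of the 10 between IR and sham with either the median ratio or a common sum. The shares of all genes with bounds apart were not computed under these scalings, so this count has no background either. Counting a gene when each FPKM lay outside the other sample's bounds gave 1 gene, Sqstm1, for IR against WI, as did the rebuilt interval. The interval left out 0 for 9.52% of all genes in that comparison. For the other rule the share of all genes was not computed, so its count has no background. Of the single-gene differences under alternatives, 221 moved by less than an SD rebuilt from the bounds and 16 by more, all of them with a common sum. The 221 include the filter settings, which cannot alter a gene's own difference, so those entries were unmoved by construction. No difference past 2-fold among the 10 genes changed sign under these alternatives. The share of calls that were higher in IR was 66.9% against WI and 55.4% against sham with a pseudocount of 0.01. Without counts, the FPKM bounds set what could be seen, about 1 on the log2 scale for most of the 10 genes.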
